A study of Homo sapiens with 12 samples.

Results

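NAV1, NAV2 and NAV3 are the neuron navigator genes, 3 of the 55765 gene symbols counted in 12 RNA-seq libraries of SH-SY5Y cells, a neuroblast-like line subcloned from the neuroblastoma line SK-N-SH that the source label names. The genes were chosen by name and by measured values, since NAV1 and NAV2 were selected on their wide spread among the pre-treatment libraries and NAV2 on its place as a gene induced by retinoic acid. All cells received 10 µM all-trans retinoic acid (ATRA) for 7 days. In the co-treatment experiment, 3 control libraries came from cells with ATRA alone and 3 treated libraries from cells given hydrogen peroxide (H2O2) during all 7 days of ATRA, and in the pre-treatment experiment, 3 control libraries were set beside 3 from cells given H2O2 for 72 h before the 7 days of ATRA. The H2O2 dose is 10 mM in the series text and 10 µM in the methods. The comparisons asked how H2O2 during or before differentiation altered the transcriptome. Cells without ATRA were not analysed here, so induction by ATRA was not measured. The labels do not say whether replicates of a group were separate cultures, so p-values measure the spread between these libraries only.

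Navigators are large cytoskeletal proteins of the AAA family, related to the nematode gene unc-53, that bind microtubule plus ends and act in neurite and axon outgrowth. NAV1 and NAV2 have been tied to growth cone steering, NAV2 was first described as a transcript that rises with retinoic acid in neuroblastoma cells, and NAV3 is best known from brain. ATRA acts through nuclear receptors that bind repeated AGGTCA half-sites, and it also raises the enzymes that clear it.

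On hg19, NAV1 lies on the plus strand of chromosome 1 at 201508255 to 201796097, NAV2 on the plus strand of chromosome 11 at 19372271 to 20143147 and NAV3 on the plus strand of chromosome 12 at 77718421 to 78606790, all 3 being protein-coding genes. Their annotated exons, merged over all transcripts, cover 22808 bases for NAV1, 15162 for NAV2 and 13278 for NAV3. RefSeq promoter windows were held for 2 start sites of NAV1, 3 of NAV2 and 2 of NAV3. The 250 bases before the start sites with CG-rich windows of NAV1 and NAV2, and the NAV3 window with the only AGGTCA, are shown because NAV1 and NAV2 moved together across the libraries while NAV3 was barely detected. They are on the GRCh38.p14 plus strand, 5′ to 3′, and capitals mark the motifs found. The motifs searched on both strands were the retinoid receptor half-site AGGTCA and its direct repeats with a spacer of 5 or 2 bases, the SP1 box GGGCGG, the E-box CAGCTG, the AP-1 site TGANTCA and the antioxidant response core TGACNNNGC.
NAV1, chr1:201648416-201648665: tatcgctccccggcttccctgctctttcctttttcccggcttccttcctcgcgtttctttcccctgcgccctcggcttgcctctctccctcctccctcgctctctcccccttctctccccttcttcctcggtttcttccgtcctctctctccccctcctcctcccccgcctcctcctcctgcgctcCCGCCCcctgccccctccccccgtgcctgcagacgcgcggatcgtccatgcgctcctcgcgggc
NAV1, chr1:201739650-201739899: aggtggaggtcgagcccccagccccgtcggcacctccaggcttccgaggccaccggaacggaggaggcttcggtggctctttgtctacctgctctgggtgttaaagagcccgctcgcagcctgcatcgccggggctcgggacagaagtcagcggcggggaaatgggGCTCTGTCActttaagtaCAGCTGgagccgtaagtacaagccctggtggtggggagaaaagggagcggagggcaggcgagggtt
NAV2, chr11:19344986-19345235: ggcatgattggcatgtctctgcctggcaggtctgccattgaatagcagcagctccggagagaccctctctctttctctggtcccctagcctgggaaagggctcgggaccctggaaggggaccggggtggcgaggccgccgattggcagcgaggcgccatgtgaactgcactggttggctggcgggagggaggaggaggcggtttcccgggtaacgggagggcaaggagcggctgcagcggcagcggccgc
NAV2, chr11:19712587-19712836: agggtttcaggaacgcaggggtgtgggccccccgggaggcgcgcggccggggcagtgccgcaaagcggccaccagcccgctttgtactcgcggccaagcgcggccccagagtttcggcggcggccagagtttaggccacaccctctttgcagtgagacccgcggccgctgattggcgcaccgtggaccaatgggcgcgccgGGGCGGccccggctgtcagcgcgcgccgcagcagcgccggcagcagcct
NAV3, chr12:78036364-78036613: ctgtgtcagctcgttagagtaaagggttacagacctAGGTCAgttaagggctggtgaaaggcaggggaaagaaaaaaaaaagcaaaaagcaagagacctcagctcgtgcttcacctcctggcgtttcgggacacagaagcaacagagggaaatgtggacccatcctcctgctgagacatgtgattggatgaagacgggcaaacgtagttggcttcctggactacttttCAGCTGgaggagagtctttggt

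Of these windows, the first of NAV1 was 68% G and C with 21 CG dinucleotides and the second 64.4% with 17, while the first of NAV2 was 66.8% with 16 and the second 74% with 32. The printed NAV3 window was 49.6% G and C with 6 CG, beside a median of 58% and 11 CG over all 35116 promoter windows of the same length. An SP1 box began 64 bases upstream in the first NAV1 window on the minus strand and 49 bases upstream in the second NAV2 window on the plus strand. The second NAV1 window held an E-box at 66 bases and an antioxidant core on the minus strand at 84 bases, and the first NAV2 window held none of the motifs. AGGTCA was found only in the printed NAV3 window among the 7, at 214 bases, and that window also held an E-box at 22 bases. Of all promoters, 42.6% held GGGCGG, 14.0% CAGCTG, 12.1% AGGTCA, 10.9% TGACNNNGC, 6.57% TGANTCA and 0.00285% either direct repeat. These matches describe letters in short windows, and variants of the AGGTCA half-site were not searched.

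Depth ranged from 27576276 to 98287391 counted reads per library, and the noradrenergic neuroblast genes HAND2 and DBH were abundant in every library, at 306 to 564 and 123 to 1097 CPM (reads scaled to library size), with TH near 0 at 64 reads in all. Marker sums in co-treatment were 2459 to 2955 CPM in controls and 1630 to 2266 CPM with H2O2 for 9 noradrenergic genes, 285 to 425 and 342 to 364 CPM for the 10 mesenchymal genes with PRRX1 at or near 0, 1547 to 1564 and 1165 to 1507 for 5 neuronal genes, and 6.40 to 7.71 and 6.82 to 7.81 for 7 glial genes. In pre-treatment the sums were 1717 to 3006 CPM in controls and 1294 to 1887 CPM with H2O2 for noradrenergic, 339 to 452 and 410 to 446 CPM for mesenchymal, 1301 to 1582 and 1090 to 1287 for neuronal, and 6.55 to 7.83 and 6.61 to 9.18 for glial genes. Within the mesenchymal list VIM was at 5.76 to 9.85 CPM in co-treatment controls and 15.3 to 17.8 with H2O2. In pre-treatment VIM was at 3.06 to 4.998 and 19.4 to 22.8 CPM and COL3A1 at 13.2 to 22.2 and 85.2 to 111 CPM. CD44 was also higher in pre-treatment, at 0.808 to 1.43 CPM in controls and 1.90 to 2.97 CPM with H2O2. YAP1 and COL1A2 were higher there too, at no more than 0.963 and 0.250 CPM. Not all members rose. TWIST1 was at 172 to 185 CPM in co-treatment controls and lower with H2O2, at 118 to 136 CPM. COL3A1 overlapped in co-treatment, at 20.8 to 38.5 and 26.2 to 30.0 CPM. FN1 overlapped in pre-treatment, at 98.0 to 235 CPM in controls and 89.5 to 138 CPM with H2O2. The part of these markers in the navigator levels was not tested. Pre-treatment control replicates 1 and 2 stood apart from all other libraries, with 0.800 and 0.830 reads assigned to no annotated feature per counted read against 0.200 to 0.462, and with 1.70% and 2.98% of counted reads on small structured RNAs against 5.15% to 17.7%. In bulk RNA, fewer cells with a transcript and less transcript per cell cannot be told apart.

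Per exon length, NAV2 was the most abundant navigator in all 12 libraries, NAV1 was lower and NAV3 was close to undetected. Raw reads ran from 7993 to 73258 for NAV2, from 2312 to 23685 for NAV1 and from 0 to 23 for NAV3. Divided by exon length, the level of NAV2 was 14.6 to 89.8 CPM per kb (median 21.8), that of NAV1 was 2.96 to 18.9 CPM per kb (median 4.46) and that of NAV3 was at most 0.0198 CPM per kb. On this per-length scale NAV2 stood above 84.9% to 99.2% of 17997 protein-coding genes and NAV1 above 54.6% to 90.7%.

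NAV1 and NAV2 are described first in co-treatment, whose values the rule of choice did not use, though earlier results of these data were known. NAV2 was at 695, 275 and 234 CPM in control replicates 1, 2 and 3. With H2O2 it was at 354, 428 and 446 CPM. Control replicate 1 was thus the highest of the 6 libraries and control replicates 2 and 3 the lowest, so that the treated libraries fell inside the control range. NAV1, the family member without the calponin-homology domain, had the same layout, at 179, 77.4 and 67.6 CPM in the controls and 99.5, 113 and 129 CPM with H2O2. The control spread was wide for both, with a mean of 401 ± 255 CPM (SD, n = 3) for NAV2 and 108 ± 61.4 CPM for NAV1, while the treated means were 409 ± 48.5 and 114 ± 14.8 CPM.

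**Figure D1:**
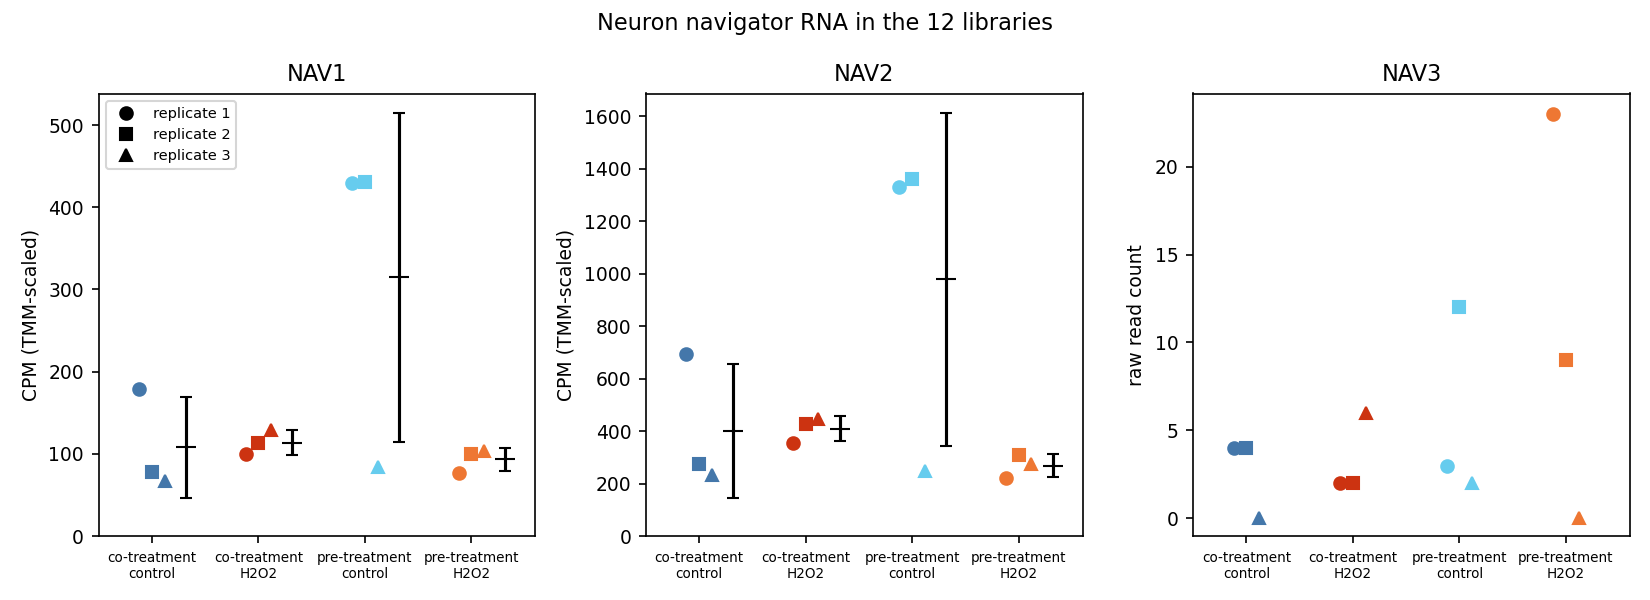
Levels of NAV1 and NAV2 in CPM (TMM-scaled) and raw read counts of NAV3 in each of the 12 libraries, with point shape for the replicate, and black marks for the mean and SD of 3 libraries. Pre-treatment control replicates 1 and 2 hold the highest NAV1 and NAV2 levels, at 430 and 431 CPM and at 1329 and 1361 CPM, and co-treatment control replicate 1 the next highest, while NAV3 stays at 23 reads or fewer.

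Neither NAV1 nor NAV2 passed the test of co-treatment. The log2 fold change of H2O2 over control was 0.08 for NAV1 (SE 0.29, 95% interval −0.56 to 0.71, adjusted p = 0.979, edgeR's quasi-likelihood test with Benjamini-Hochberg adjustment). For NAV2 it was 0.03 (SE 0.32, 95% interval −0.67 to 0.73, adjusted p = 0.993 by the same edgeR test). The intervals span changes of either sign, so at this spread a moderate rise or fall was not detectable. Of the 3 genes, 2 passed the filter on low counts and 0 of these 2 were called, beside 132 of 22089 genes (0.598%) called at an adjusted p under 0.05 and an absolute log2 fold change over 0.6, and 1801 genes had an unadjusted p under 0.05. With DESeq2, limma-voom or edgeR's exact test, 0 of the 2 were called as well.

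That outcome rested on control replicate 1. Without it, the remaining controls lay below all 3 treated libraries for both genes, and the log2 fold change became 0.65 for NAV1 (SE 0.14, adjusted p = 0.0358, edgeR) and 0.69 for NAV2 (SE 0.14, adjusted p = 0.0237, edgeR). In that 5-library fit 2 of 2 tested navigators were called, beside 0.953% of 22869 genes. These p-values depend on leaving out the library with the highest levels of both genes. Leaving out any other library called neither gene (adjusted p of at least 0.878, edgeR). The 2 genes ran together in co-treatment (Pearson r = 0.995), so their 2 calls are not independent. Control replicate 1 had 0.370 reads assigned to no feature per counted read against 0.285 and 0.284 in the other controls, 5.42% small structured RNA against 9.98% and 13.0%, and 1.51% mitochondrial reads against 0.696% and 0.455%. Treated replicates 1, 2 and 3 had 0.263, 0.429 and 0.342 unassigned reads per counted read. On that measure control replicate 1 lay inside the treated range. Their mitochondrial share was lower than in control replicate 1, at 0.564% to 0.687%. Treated replicate 1 had 5.15% small structured RNA too, with NAV2 at 354 CPM. The part of these library values in the navigator levels was not tested. Leaving out control replicate 2 or 3 turned the sign of both genes, to −0.12 and −0.17 for NAV1 and to −0.18 and −0.24 for NAV2.

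**Figure D2:**
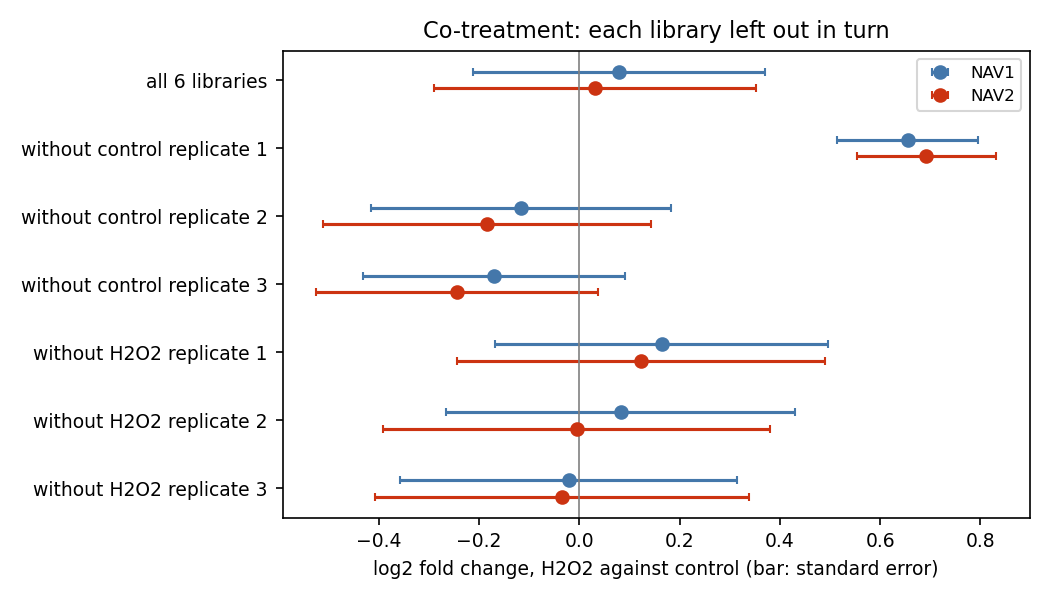
Log2 fold change of H2O2 over control in co-treatment for NAV1 (blue) and NAV2 (red), with all 6 libraries and with each library left out in turn; bars are standard errors. Values without control replicate 1 sit at 0.65 and 0.69, and all others lie between −0.24 and 0.17.

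The pre-treatment libraries chose NAV1 and NAV2, so their values there are a description without a test. NAV2 was at 1329, 1361 and 247 CPM in control replicates 1, 2 and 3. With H2O2 before ATRA it was at 221, 308 and 274 CPM. Control replicates 1 and 2 were far above all other libraries, and control replicate 3 lay inside the treated range. NAV1 was at 430, 431 and 83.9 CPM in the controls and at 77.2, 99.6 and 104 CPM in the treated libraries, again with control replicate 3 between the treated values. Over all 12 libraries the highest level was 6.38-fold above the lowest for NAV1 and 6.15-fold for NAV2. The SD of log2 CPM over the 12 libraries was 0.905 for NAV1 and 0.921 for NAV2, each above that of 99.0% of the 10937 genes with a mean log2 CPM of at least 3, a spread for which the genes were chosen without a numeric threshold.

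The log2 fold change in pre-treatment was −1.71 for NAV1 and −1.83 for NAV2 over 6 libraries. Without control replicate 3, the library apart from the other controls, it was −2.13 and −2.26. With control replicate 3 as the only control, the difference was taken without an edgeR fit. The mean log2 CPM of the treated libraries minus that of this control was 0.14 and 0.10. The direction in pre-treatment was therefore that of control replicates 1 and 2, the libraries that stood apart in unassigned and small RNA reads. Control replicate 3 lay at the other end of both measures. It had the fewest unassigned reads per counted read of all libraries (0.200) and the largest small RNA share (17.7%). The part of those library values was not tested. No count of navigators called was taken in this experiment, and of all genes 0.0242% of 24743 were called over 6 libraries and 11.2% of 26350 over 5 libraries, at an adjusted p under 0.05 and an absolute log2 fold change over 1. Over 6 libraries 1.43% of tested genes had a lower log2 fold change than NAV1 and 1.04% one lower than NAV2. Without control replicate 3 these shares were 2.89% and 2.36%. Since the genes were chosen for their spread among these libraries, an outlying rank follows from the choice and is no test. Both are long genes, with spans of 287.8 and 770.9 kb. Among the 853 tested genes longer than 250 kb the median log2 fold change was −0.05, with 0.703% lower than NAV1 and 0.469% lower than NAV2. These ranks rest on the same choice, and the part of gene length was not tested.

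**Figure D3:**
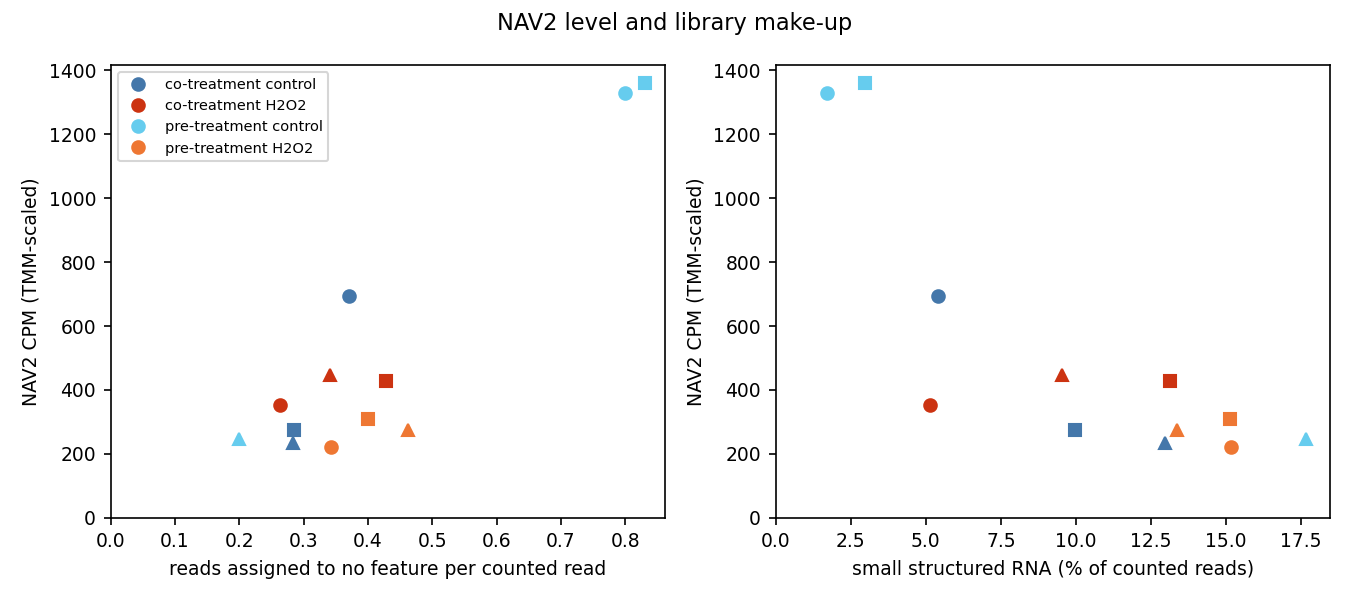
NAV2 level in CPM against reads assigned to no annotated feature per counted read (left) and against the percentage of counted reads on small structured RNAs (right), with colour for the group and shape for the replicate. Pre-treatment control replicates 1 and 2 sit alone at 0.800 and 0.830 unassigned reads per counted read and at 1.70% and 2.98% small RNA.

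Set in order by group mean, NAV2 was highest in pre-treatment controls at 979 ± 634 CPM (SD, n = 3), followed by 409 ± 48.5 CPM in co-treatment with H2O2, 401 ± 255 CPM in co-treatment controls and 268 ± 43.5 CPM in pre-treatment with H2O2. NAV1 had the same order, at 315 ± 200, 114 ± 14.8, 108 ± 61.4 and 93.5 ± 14.2 CPM. Every neighbouring pair in this order differed by less than the larger of its SDs for NAV2, and for NAV1 the first pair differed by about its larger SD and the others by less. Differences between the experiments are given as values only.

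The balance between NAV1 and NAV2 moved far less than their levels. NAV2 had 3.89, 3.55 and 3.46 reads per NAV1 read in co-treatment controls and 3.56, 3.80 and 3.45 with H2O2. In pre-treatment it had 3.09, 3.16 and 2.94 in controls and 2.87, 3.09 and 2.64 with H2O2. All 6 co-treatment ratios were above all 6 pre-treatment ratios, while control and treated ratios overlapped within each experiment, and the experiments cannot be told apart from batches. Control replicate 1 had the highest ratio and the highest levels in co-treatment, and control replicates 1 and 2 had the highest ratios and levels of the 6 pre-treatment libraries, although pre-treatment H2O2 replicate 2 matched control replicate 1 at 3.09. Of raw navigator reads NAV2 made up 72.6% to 79.5%. Per length of exons merged over all transcripts, it made up 79.9% to 85.4% of navigator RNA. In co-treatment its share was 84.5 ± 0.802% in controls and 84.4 ± 0.641% with H2O2 (SD, n = 3), a difference of −0.0993 percentage points (exact permutation test, two-sided, p = 0.9, where 3 against 3 allows no p below 0.1).

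**Figure D4:**
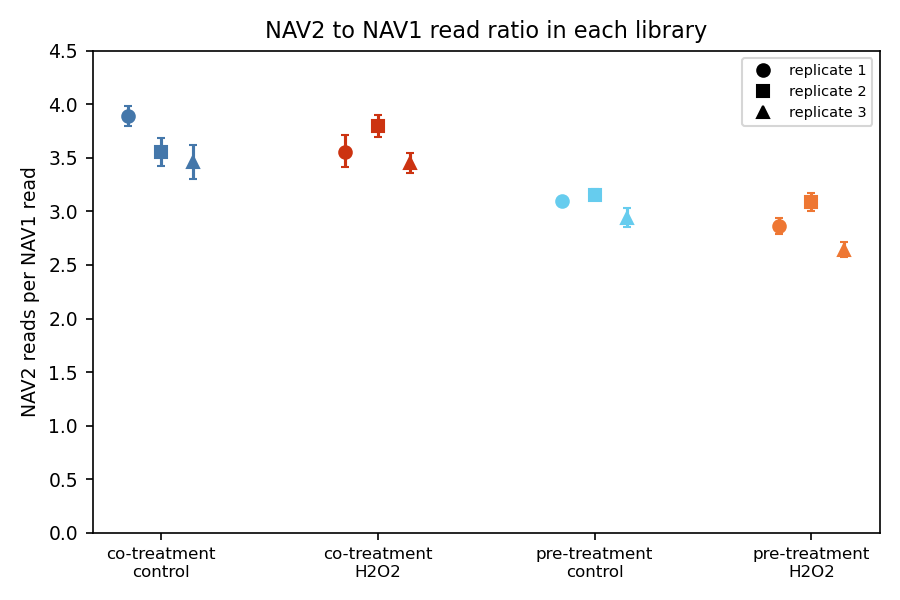
NAV2 reads per NAV1 read in each library by group, with shape for the replicate and bars for 95% intervals that cover counting error only. The co-treatment libraries lie between 3.45 and 3.89 and the pre-treatment libraries between 2.64 and 3.16.

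NAV3 was counted with 67 reads in 12 libraries together. It had 4, 4 and 0 reads in co-treatment controls and 2, 2 and 6 with H2O2. In pre-treatment it had 3, 12 and 2 reads in controls and 23, 9 and 0 with H2O2. The groups overlapped in both experiments, and 2 libraries had no read. A floor of 3 counts, scaled by library size without TMM factors, stood at 0.0806 CPM in co-treatment control replicate 3. In pre-treatment H2O2 replicate 3 that floor stood at 0.0383 CPM. Summed over 3 libraries the counts were 8 (exact Poisson 95% interval 3.45 to 15.8) and 10 (4.80 to 18.4) in co-treatment, and 17 (9.90 to 27.2) and 32 (21.9 to 45.2) in pre-treatment, with intervals for counting error only. Scaled to library size, the pre-treatment means were 0.116 ± 0.128 CPM in controls and 0.123 ± 0.119 CPM with H2O2 (SD, n = 3). NAV3 did not pass the filter in co-treatment. It passed in pre-treatment, at 0 to 23 reads a library, and no fold is given for either experiment.

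Other loci carry navigator names because they overlap NAV2. The strand setting of the counting is not given in the sources used here, so reads of NAV2 and of the genes opposite it cannot be told apart. NAV2-AS3, a long noncoding RNA on the minus strand inside NAV2, had 87, 39 and 21 reads in co-treatment controls and 15, 90 and 51 with H2O2. In pre-treatment it had 322, 172 and 21 reads in controls and 84, 88 and 73 with H2O2, so that control replicates 1 and 2 were the highest here too. NAV2-AS2 had 14 to 85 reads a library, NAV2-AS4, NAV2-AS5 and NAV2-IT1 had 12, 15 and 4 reads in all, and NAV2-AS1 was at 0 in all 12 libraries, below 3 counts in each. These sums are small beside the 330356 reads of NAV2.

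Genes next to the navigators had other ranges. IPO9, an importin gene that begins just past NAV1, was at 247 to 326 CPM in all 12 libraries. CSRP1, a LIM-domain gene on its other side, was at 49.5 to 94.0 CPM. E2F8, a cell cycle repressor beside NAV2, was at 2.99 to 9.17 CPM, and the homeobox gene DBX1 on the other side reached at most 0.469 CPM. E2F7, beside NAV3, was at 3.86 to 13.3 CPM, and SYT1, the synaptotagmin gene on its other side, was at 95.5 to 142 CPM although NAV3 itself was near 0.

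The genes whose log2 CPM most resembled NAV2 over the 12 libraries were ZNF827, a zinc finger gene (Pearson r = 0.992), MAP1B, a microtubule-associated protein of growing axons (r = 0.989), and the kinase GSK3B (r = 0.989). Within the 6 co-treatment libraries r was 0.993, 0.971 and 0.975, and without pre-treatment control replicates 1 and 2 (n = 10) it was 0.976, 0.961 and 0.963. For NAV1 they were GSK3B (r = 0.991), the coactivator ZMIZ1 (r = 0.991) and the acetyltransferase EP300 (r = 0.990). NAV1 and NAV2 had r = 0.983 with each other over 12 libraries and 0.995 within co-treatment, and NAV1 was the 9th closest gene to NAV2. MAP1B showed the layout in levels: 2321 and 2590 CPM in pre-treatment control replicates 1 and 2, 1451 CPM in co-treatment control replicate 1 and 581 to 930 CPM in the other 9 libraries. These correlations are descriptions across 12 libraries that share depth, composition and the few libraries that stand apart.

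Retinoic acid genes were set beside NAV2. Of 22 genes of retinoic acid response and metabolism, 18 passed the filter in co-treatment, and 0 were called higher and 2 lower with H2O2, beside 74 higher and 58 lower of 22089 genes (0.598%). The median log2 fold change of the tested genes was −0.08, beside −0.00095 over all genes tested. MEIS1, a homeobox cofactor, fell from 137, 154 and 153 CPM in controls to 96.6, 98.3 and 83.4 CPM with H2O2, with no overlap (log2 fold change −0.67, SE 0.12, adjusted p = 0.0307, edgeR's quasi-likelihood test with Benjamini-Hochberg adjustment). NR2F1, an orphan nuclear receptor, fell from 29.0, 23.1 and 21.9 CPM to 13.3, 10.2 and 12.4 CPM (log2 fold change −1.04, SE 0.16, adjusted p = 0.0119, edgeR). The MEIS1 call was lost on leaving out any library other than control replicate 1 (adjusted p up to 0.353, edgeR), that of NR2F1 on leaving out treated replicate 2 or 3 (0.0683 and 0.103, edgeR), and both with library size scaling (0.0580 and 0.0515, edgeR). RARB, a receptor gene that ATRA induces, had a log2 fold change of 0.11, CYP26A1, which degrades retinoic acid, one of 0.27, RET, a receptor kinase, one of −0.30, and NTRK2, the BDNF receptor, one of −0.36, and none of these passed the test.

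The genes of the retinoic acid list differed in how they ran beside NAV2. RARB was at 160, 134 and 216 CPM in pre-treatment controls and CYP26A1 at 1153, 841 and 1796 CPM, each highest in replicate 3, where NAV2 was lowest of the controls. CYP26B1, a further retinoic acid hydroxylase that was picked after its values were seen, went with NAV2 in these libraries, at 1872, 2327 and 511 CPM. RET, at 4098, 4399 and 2877 CPM, and NTRK2, at 595, 661 and 388 CPM, were also higher in control replicates 1 and 2 than in 3. RARA, a retinoic acid receptor gene likewise picked after its values were seen, was at 55.4, 76.8 and 43.9 CPM. In pre-treatment H2O2 replicate 3 some of the listed genes were far below the other treated libraries: CYP26A1 was at 122 CPM against 1200 and 1190 in replicates 1 and 2, RARB at 64.2 against 204 and 181, and CYP26B1 at 21.5 against 315 and 426. NAV2 in that library was at 274 CPM, between the other treated libraries, and NAV1 at 104 CPM was slightly above them. RET was at 989 CPM there against 2072 and 2339. Other listed genes were not low in that library, among them MEIS2 at 400 CPM against 387 and 362 and NR2F1 at 16.1 CPM against 12.5 and 17.0.

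**Figure D5:**
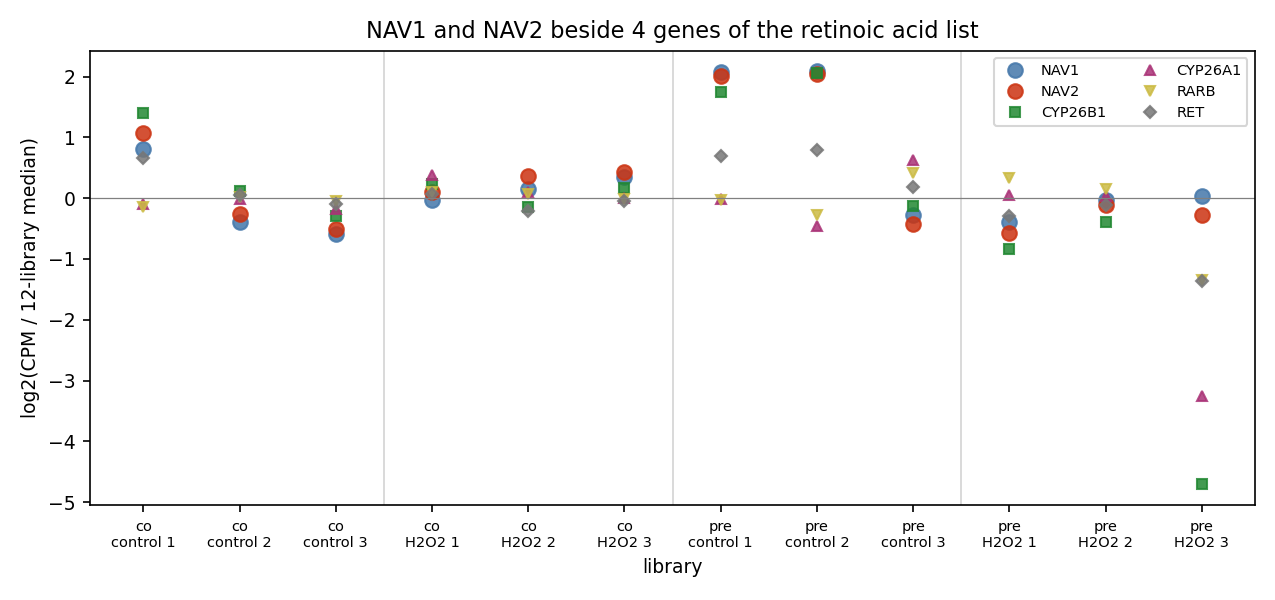
Log2 ratio of each gene's CPM to its own median over 12 libraries, for NAV1, NAV2 and 4 genes of the retinoic acid list, by library. CYP26B1 lies with NAV1 and NAV2 in pre-treatment controls, and in pre-treatment H2O2 replicate 3 it and CYP26A1 lie at 21.5 and 122 CPM and NAV2 at 274 CPM.

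Genes of the navigators' protein partners and of fellow plus-end proteins were tested in co-treatment. Of 20 plus-end genes 20 were tested and 0 were called in either direction, beside 0.598% of all genes called, with a median log2 fold change of −0.07. MAPRE1, whose protein EB1 marks growing plus ends, had a log2 fold change of 0.05 and MAPRE3 one of −0.16. Of 23 partner and guidance genes 23 were tested and 0 were called beside the same 0.598%, with a median of −0.12. TRIO, a guanine nucleotide exchange factor reported to bind NAV1, had a log2 fold change of 0.02 and was at 385 to 509 CPM in controls and 420 to 451 CPM in treated cells by the lowest and highest replicate. DCC, a netrin receptor, had one of −1.25 (SE 0.74, adjusted p = 0.743, edgeR) at 0 to 0.754 CPM. Without control replicate 1, 1 partner gene was called higher, beside 0.953% of 22869 genes called in either direction, SLIT2, a guidance ligand that was picked after its values were seen (log2 fold change 1.09, adjusted p = 0.00884, edgeR, against 0.82 and 0.185 with all 6 libraries).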

How the data were processed

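RNA was measured in 12 SH-SY5Y libraries made from ribosomal RNA-depleted total RNA with a stranded kit. According to the authors and the processing notes, reads were checked with FastQC 0.11.8, stripped of low-quality bases (Cutadapt 2.10), aligned to the hg19 build (HISAT2 2.1.0) and summed over gene symbols (HTSeq 0.7.2). The deposited values are raw read counts, with 5 closing entries for reads not counted on a gene, which made up 40.0% to 59.9% of entries and were left out of library sizes. Strand setting and annotation are not given in the sources used here. The authors' tables of fold changes and p-values were not used.

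CPM used TMM factors (0.862 to 1.12) over 12 libraries. Groups were compared in R 4.3.3 with edgeR 4.0.16 (quasi-likelihood test, Benjamini-Hochberg adjustment) on each experiment's 6 libraries, for genes reaching 5 counts in the smallest library (0.181 CPM in co-treatment, 0.120 CPM in pre-treatment) in at least 3 libraries. Log2 CPM used a prior count of 2. DESeq2 1.42.0 and limma 3.58.1 were alternatives, and the steps were tested on simulated data. Replicates of a group differed beyond sampling noise (chi-square per degree of freedom 25.1 to 553). Same-numbered samples were not paired, since their residuals correlated at −0.0733 to −0.0626 in co-treatment and −0.279 to 0.0295 in pre-treatment. Positions and exon lengths came from GENCODE on hg19, in which 33177 symbols (59.5%) matched 1 gene. Promoter windows came from RefSeq on GRCh38.p14, and no coordinates were converted. Named genes were the navigators, loci with their names, their 3 closest genes by Pearson r, listed genes called in co-treatment and RARB, CYP26A1, RET, NTRK2, TRIO, MAPRE1, MAPRE3 and DCC. The nearest protein-coding gene on each side of each navigator, HAND2, DBH, TH, PRRX1, VIM, COL3A1, CD44, YAP1, COL1A2, TWIST1, FN1, CYP26B1, RARA, MEIS2 and SLIT2 are outside that rule and were named after their values were seen. The genes, lists and tests were chosen with earlier results of these data known. 1 noradrenergic marker is not reported here.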

Additional observations from a re-analysis of the deposited data

How the results depend on the processing

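Under 11 alternative tests, scalings, filters and fits, the co-treatment log2 fold change stayed at 0.08 to 0.22 for NAV1 and 0.03 to 0.22 for NAV2 with adjusted p from 0.897 and 0.915 up to 1 (edgeR, DESeq2 or limma), the upper values with a replicate block (0.22 for both), which changed neither call. Leaving out each library gave −0.17 to 0.65 for NAV1 and −0.24 to 0.69 for NAV2 (adjusted p over all alternatives from 0.0358 and 0.0237 to 1, edgeR), with both called without control replicate 1. The sign turned for NAV1 without control replicate 2 (−0.12), control replicate 3 (−0.17) or treated replicate 3 (−0.02), and for NAV2 without control replicate 2 (−0.18), control replicate 3 (−0.24), treated replicate 2 (−0.0055) or treated replicate 3 (−0.03). NAV3 gave no value in co-treatment, since it did not pass the filter. The difference in NAV2 share per length ranged from −0.45 to 0.35 percentage points, reversed without control replicate 1 (0.35) or treated replicate 3 (0.18), and was −0.13 in raw reads. In pre-treatment, NAV1 ranged from −2.13 to −1.44 and NAV2 from −2.26 to −1.54 when each library was left out. Without control replicates 1 and 2, a choice made after seeing the data, the differences in mean log2 CPM were 0.14 and 0.10. Co-treatment calls over all genes were 132, and 307 with edgeR's exact test, 308 with DESeq2, 80 with library size scaling, 443 without a filter, 3 in 1 fit over 12 libraries, 180 with the replicate block and 18 to 218 with a library left out. Pre-treatment calls were 6, and 0 to 2952 with a library left out. With library size scaling the split of co-treatment calls was 57 higher and 23 lower against 74 and 58. The causes of these shifts were not tested. With 3 libraries a group the outcome for NAV1 and NAV2 turns on 1 control, and for NAV3 the low read counts limit any comparison.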
